A study of Homo sapiens with 18 samples.

Results

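NCI-H211 cells that carried the L191A form of POU2F3 were compared 5 days after infection with lentivirus carrying a guide against the endogenous gene (L191A sgPOU2F3) or a control guide (L191A sgRosa). NCI-H211 is an established small cell lung cancer line, and all cells of the study also carried Cas9, the nuclease that the guide directs. The comparison took 6 of the 18 libraries of the study, 3 per guide, and 12552 of 19741 gene entries, those that averaged 1 TPM or more in these 6 libraries. TPM are transcript shares corrected for transcript length and scaled to a fixed total. The other lines, each with 3 sgPOU2F3 and 3 sgRosa libraries, carried an empty vector or the WT cDNA, and both cDNAs were made resistant to the guide. Each line was infected in triplicate with over 95% of cells positive for mCherry, per the labels, which do not say whether a line was a clone or a pool, what drives the cDNA, or how much protein was made. Replicates were therefore separate infections of 1 line per cDNA, and p-values measured the spread between infections only. For each gene that spread was pooled over the 6 groups of the study. TPM sum to the same total in every library, so sequencing depth is unknown.

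POU2F3 is a transcription factor that binds the octamer DNA element through a POU-specific domain and a POU homeodomain. It is required for tuft cells, which are chemosensory epithelial cells that use the signalling parts of taste cells, and it marks a tuft-like subtype of small cell lung cancer. Its coactivators are POU2AF2 and POU2AF3, listed in the data under the older symbols C11orf53 and COLCA2. A guide-resistant cDNA keeps making protein when the endogenous gene is cut, and the comparison asks which genes still change when the remaining cDNA codes for the L191A form.

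The changed residue is shown by its place in the reference gene. The codon numbered as in L191A is a leucine codon, CTG, in transcript ENST00000543440.6, and lies in exon 7 at chr11:120305156-120305158 on the plus strand (GRCh38). In another POU2F3 transcript, ENST00000260264.8, the codon of the same number is GAG, and the labels do not say which numbering was used. The reference sequence around the leucine codon, chr11:120305138-120305176, has that codon in capitals.
POU2F3 leucine codon: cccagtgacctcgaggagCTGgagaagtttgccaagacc

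One of the 6 libraries stood apart. In L191A sgRosa replicate 1 the median tested gene was at 7.729 TPM, against 20.61 to 21.75 TPM in the other 5 L191A libraries, and ribosomal protein genes took 38.03% of its TPM, against 20.15% to 24.52%. Its log2 deviation from the mean of the other sgRosa replicates had a slope of -0.43 per doubling of transcript length, so longer transcripts read lower in it. After scaling by the median ratio of genes, its genes still differed from those of sgRosa replicates 2 and 3 by a median of 0.663 and 0.666 on the log2 scale. Replicates 2 and 3 differed from each other by 0.131, and the sgPOU2F3 replicates by 0.0803 to 0.104. WT sgPOU2F3 replicate 1 was skewed in the same direction, with 32.96% in ribosomal protein genes. Levels below are scaled TPM, which is deposited TPM divided by each library's median-ratio factor, and log2 changes are from the fit of all 18 libraries. A value in square brackets after one is from the fit of 17 without L191A sgRosa replicate 1. A gene was called when its adjusted p in limma was under 0.05 in both fits with the same sign.

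**Figure D1:**
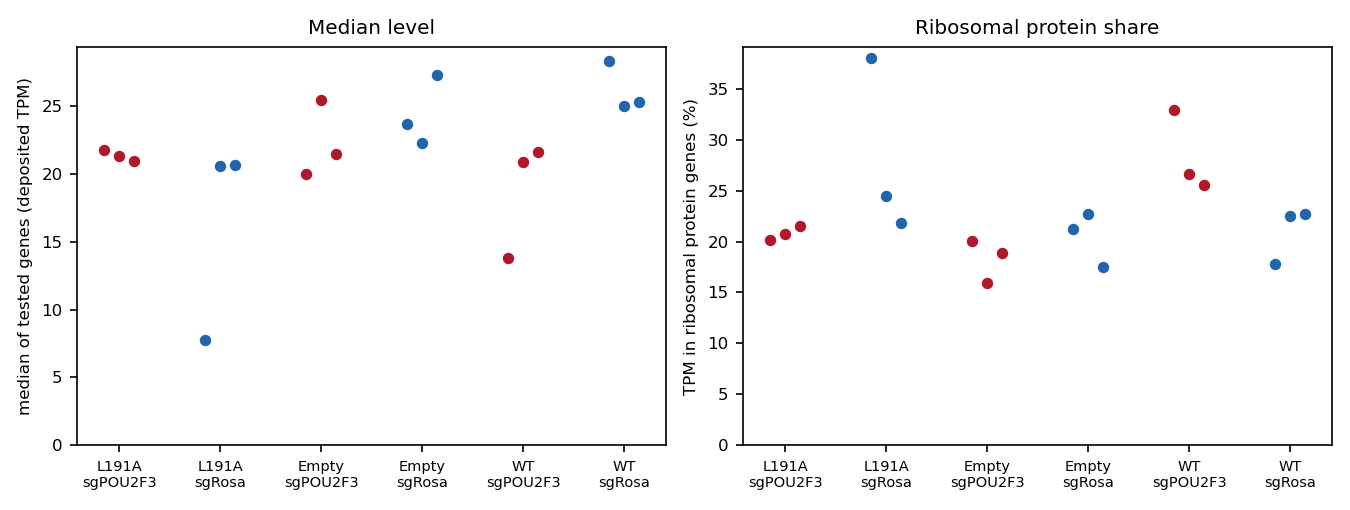
Median deposited TPM of the tested genes (left) and percent of TPM in cytosolic ribosomal protein genes (right) for each of the 18 libraries, 1 point a library in replicate order, red for sgPOU2F3 and blue for sgRosa. The first L191A sgRosa library lies at 7.729 TPM and 38.03%, apart from every other library, and the first WT sgPOU2F3 library is the next most skewed.

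With the L191A cDNA present, more genes rose than fell in sgPOU2F3 cells. Of 12552 genes, 728 rose (5.80%) and 312 fell (2.49%) in both fits, so 8.29% were called. These are the shares to set beside the list counts for L191A cells below. The fit of 18 libraries alone called 848 higher (6.76%) and 440 lower (3.51%), in all 10.3%. The fit without L191A sgRosa replicate 1 called 893 higher (7.11%) and 491 lower (3.91%). Rises were larger than falls. By the smaller change of the fits of 18 and 17 libraries, 287 of the 728 rises were at least 2-fold and 65 at least 4-fold. By the same measure 34 of the 312 falls were at least 2-fold and 0 at least 4-fold. In the fit of 18 libraries the median log2 change was 1.00 for genes that rose and -0.79 for genes that fell. The 3 sgPOU2F3 libraries lay all above or all below the 3 sgRosa libraries for 1031 of the 1040 called genes, against 30.4% of all tested genes. The calls were made from the same values, so this count describes the called genes and is no separate support for them. The split depended on scaling. With deposited TPM and no further scaling, where the median of all genes was shifted up by 0.35 on the log2 scale, 722 genes were higher and 76 lower, and with quantile normalization 878 were higher and 695 lower.

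The targeted gene itself comes first as a check of the labels. In L191A sgPOU2F3 libraries POU2F3, which lies on the plus strand of chromosome 11 from 120236640 to 120319944 (GRCh38), had 608.1, 672.0 and 659.5 scaled TPM, against 360.3, 1072.8 and 851.5 scaled TPM in L191A sgRosa libraries. The skewed first library lay below, and the other control libraries above, all sgPOU2F3 libraries. The log2 change was -0.10 (SE 0.30, adjusted p = 0.833) with 18 libraries and -0.56 (SE 0.18, adjusted p = 0.0567) without that library. With 16 libraries, which also leave out WT sgPOU2F3 replicate 1, it was -0.57 and passed in limma (adjusted p = 0.00897), while with unscaled TPM it was 0.37 and did not (adjusted p = 0.582). In empty-vector cells POU2F3 averaged 268 ± 2.5 scaled TPM with sgPOU2F3 and 625 ± 25.3 scaled TPM with sgRosa (SD, n = 3 each). In WT cells POU2F3 had 1625, 1276 and 1008 scaled TPM with sgPOU2F3, the first from the skewed library. With sgRosa the WT cells had 1228, 1553 and 1474 scaled TPM. Every WT library thus read above every L191A sgPOU2F3 library, a difference that was not tested. L191A and WT cells differed in POU2F3 RNA as well as in the residue, which cannot be told apart. Reads of the cDNA can count towards POU2F3, and the loss of endogenous protein was not measured.

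C11orf53, the gene of the coactivator POU2AF2 (chromosome 11), fell. It had 169.7, 176.1 and 164.5 scaled TPM with sgPOU2F3, against 619.6, 414.4 and 388.1 scaled TPM with sgRosa. The groups did not overlap, and the skewed library was the highest. The log2 change was -1.44 (SE 0.18, adjusted p = 4.35e-05), and -1.23 (SE 0.14, adjusted p = 1.59e-05) without that library. COLCA2, the gene of POU2AF3, averaged 8.5 scaled TPM with sgPOU2F3 and 8.16 scaled TPM with sgRosa, and POU2F1, a widely expressed octamer factor, averaged 6.67 and 4.90 scaled TPM in the same order. Both missed the threshold (adjusted p = 0.83 and 0.169). POU2F2 and POU2AF1 had means under 1 TPM and were not tested.

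Tuft genes fell in L191A cells. Of 42 listed tuft markers found in the table, 27 passed the filter on low values, and 13 of these 27 fell and 0 rose, with a median log2 change of -0.75 in both fits against -0.05 over all tested genes (-0.02 without the skewed library). Summed over all 42 markers, the level was 2159, 2173 and 2233 scaled TPM in L191A sgPOU2F3 libraries and 4565, 4267 and 3961 scaled TPM in L191A sgRosa libraries. AVIL, an actin-binding protein of the advillin type and a defining tuft marker, had 144.9, 146.3 and 156.7 scaled TPM with sgPOU2F3, against 296.8, 359.5 and 340.4 scaled TPM with sgRosa. Every sgPOU2F3 library was below every sgRosa library, at a log2 change of -1.14 (SE 0.14, adjusted p = 3.16e-05), and -1.22 without the skewed library. HEPACAM2, a cell adhesion protein, fell by 1.05 on the log2 scale and PLCG2, a phospholipase, fell by 0.91 (1.25 and 1.07 without the skewed library). BMX, a non-receptor tyrosine kinase of tuft cells, had 297.8, 318.6 and 325.6 scaled TPM with sgPOU2F3, against 456.9, 540.5 and 535.4 scaled TPM with sgRosa, without overlap (log2 change -0.70 [-0.78]). With deposited TPM and no further scaling 3 of the 27 were called lower, and with quantile normalization 11.

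Genes of the taste-type signalling chain fell as well, and TRPM5, GNG13, RGS13 and PLCB2 stand in both this list and that of tuft markers. Of 22 genes found, 11 passed the filter, and 7 of these fell and 0 rose, with a median log2 change of -0.77 (-1.004 without the skewed library). TRPM5, the cation channel at the end of the cascade, had 15.85, 17.18 and 16.43 scaled TPM with sgPOU2F3, against 64.92, 50.33 and 45.8 scaled TPM with sgRosa, a log2 change of -1.63 [-1.49] (SE 0.24, adjusted p = 0.00024). Unscaled TPM called 1 of these 11 lower, and quantile normalization 4. GNG13, a G protein gamma subunit coupled to taste receptors, had 4.125, 3.683 and 5.687 scaled TPM with sgPOU2F3, against 14.77, 12.14 and 12.03 scaled TPM with sgRosa, a log2 change of -1.36 [-1.28]. Neither gene overlapped between the groups. GNAT3, the alpha subunit gustducin, fell by 0.77 [1.01] and RGS21, a regulator of G protein signalling, fell by 1.08 [1.14] on the log2 scale. Bitter taste receptors are close paralogs that can share reads, so their values are uncertain. Among them, 2 of 15 tested members fell in both fits (TAS2R10 and TAS2R7), and 7 of 15 passed in the fit without the skewed library alone. TAS2R10 had 18.25, 19.48 and 20.32 scaled TPM with sgPOU2F3, against 121.6, 55.81 and 38.06 scaled TPM with sgRosa, so the size of its fall rested in part on the skewed library (a log2 change of -1.67 with it and -1.21 without).

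Regulators of the tuft state were split. Of 11 tested tuft transcription factors 6 fell and 2 rose, and with unscaled TPM 3 were called lower. FOXI1, a forkhead factor of ionocytes and related epithelial cells, had 34.48, 35.84 and 35.05 scaled TPM with sgPOU2F3, against 109.4, 84.98 and 83.93 scaled TPM with sgRosa. GFI1B, a zinc finger repressor, had 5.162, 5.875 and 6.035 scaled TPM with sgPOU2F3, against 17.08, 18.47 and 15.35 scaled TPM with sgRosa. Neither overlapped, with log2 changes of -1.37 [-1.24] (adjusted p = 4.63e-07) and -1.42 [-1.42] (adjusted p = 1.56e-05). ASCL2, a basic helix-loop-helix factor, fell by 1.66 on the log2 scale (1.22 without the skewed library), and MYB, a progenitor factor, fell by 0.90 (0.88). ETS1, an ETS-family factor, rose, with 6.371, 6.659 and 5.981 scaled TPM in sgPOU2F3 libraries and 1.568, 1.94 and 2.143 scaled TPM in sgRosa libraries, a log2 change of 1.35 [1.28]. Of 13 tested eicosanoid genes, HPGD and PTGS1, a prostaglandin dehydrogenase and cyclooxygenase 1, fell by 0.92 [0.95] and 0.74 [0.74] on the log2 scale, and 0 rose. With unscaled TPM neither passed and 0 of the 13 were called lower, and with quantile normalization 3 were.

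The starting level of tuft genes in L191A cells was itself below that of the other lines for several members. Tuft markers summed to 4265 ± 302 scaled TPM in L191A sgRosa cells, against 6685 ± 262 in empty-vector sgRosa cells and 5532 ± 517 in WT sgRosa cells (SD, n = 3 each). GNG13 averaged 13.0 scaled TPM in L191A sgRosa cells, against 272.1 and 107.2 scaled TPM in empty-vector and WT sgRosa cells. TRPM5 averaged 53.7 scaled TPM in L191A sgRosa cells, against 233.4 and 314.2 scaled TPM in the same order. These differences between lines under sgRosa were not tested, and the lines differ in cDNA and in their history as separate stable lines, which cannot be told apart.

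**Figure D2:**
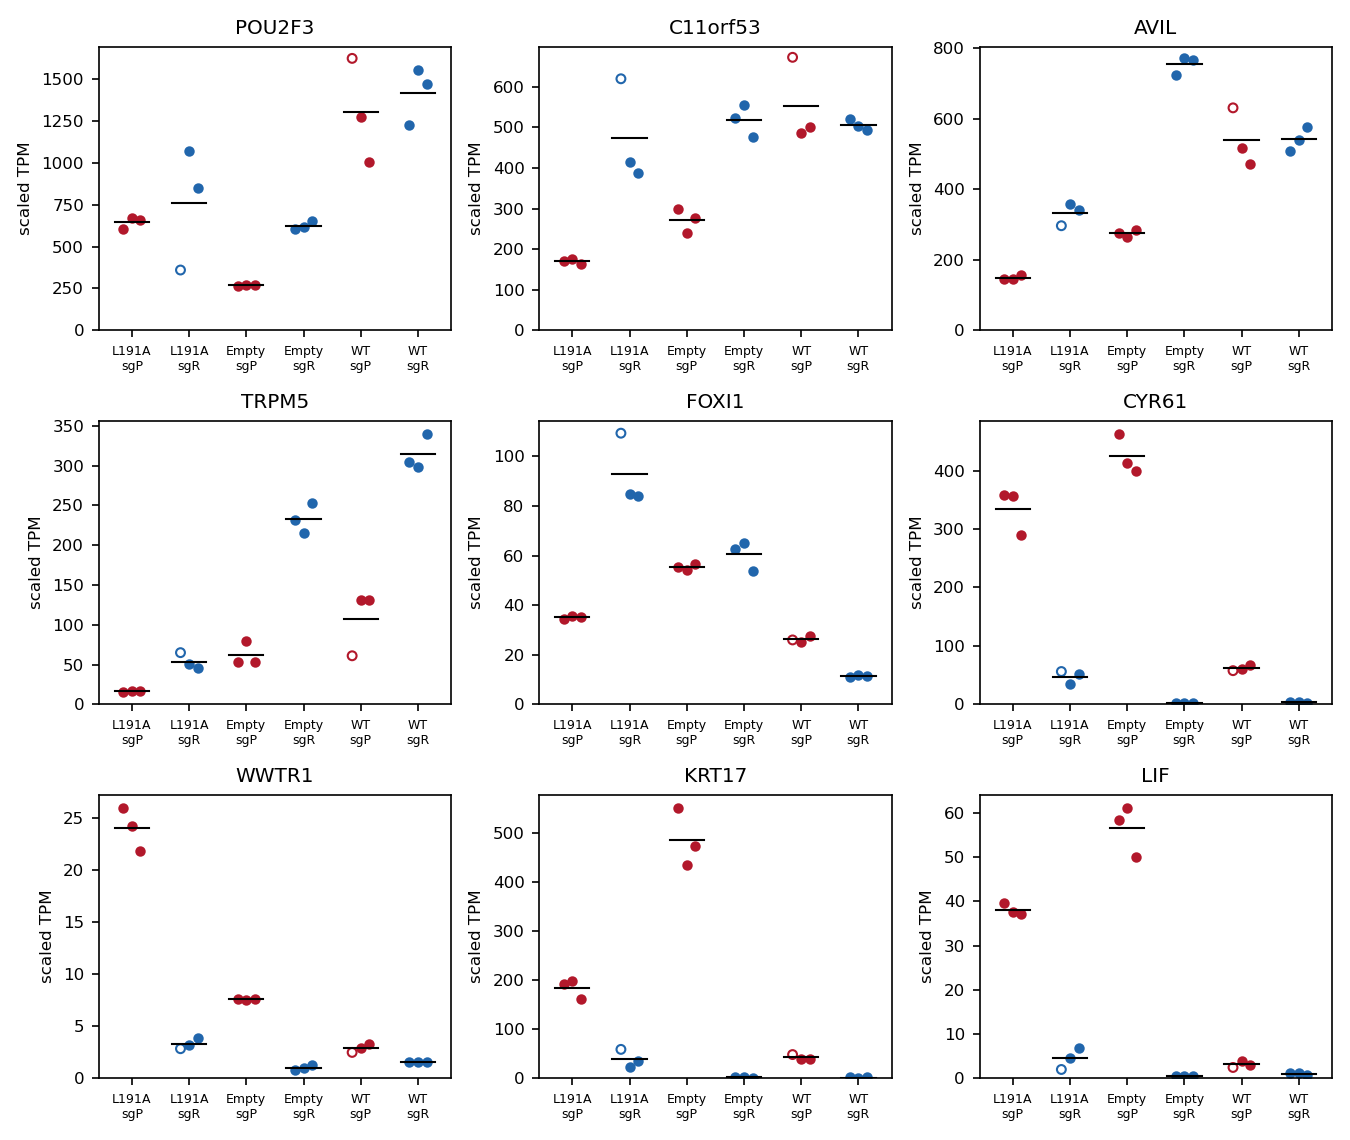
Scaled TPM of 9 genes in the 6 groups, 1 point a library in replicate order and a bar at the mean of 3, with sgPOU2F3 (sgP) in red and sgRosa (sgR) in blue, and the skewed first L191A sgRosa and first WT sgPOU2F3 libraries as open points. AVIL and TRPM5 are lowest in L191A sgPOU2F3 cells, and CYR61, KRT17 and LIF are high in the L191A and empty-vector sgPOU2F3 cells and lower in WT sgPOU2F3 cells.

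Promoters of a pair of fallen genes that hold the octamer element are shown, since POU2F3 binds that element. Each runs from 250 bases before to 50 after a RefSeq gene start (GRCh38.p14), 5' to 3' on the gene's strand, with the octamer ATGCAAAT or its reverse complement in capitals. In BMX (chrX:15507058-15507357, plus strand) it begins 44 bases before the start, and in TAS2R10 (chr12:10826309-10826608, minus strand) it lies 172 bases before the start on the opposite strand.
BMX: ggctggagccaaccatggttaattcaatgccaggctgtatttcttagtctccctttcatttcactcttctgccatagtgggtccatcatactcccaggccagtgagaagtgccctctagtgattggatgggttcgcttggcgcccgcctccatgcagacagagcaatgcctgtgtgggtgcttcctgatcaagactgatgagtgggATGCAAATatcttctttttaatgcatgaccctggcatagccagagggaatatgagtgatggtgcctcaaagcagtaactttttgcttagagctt
TAS2R10: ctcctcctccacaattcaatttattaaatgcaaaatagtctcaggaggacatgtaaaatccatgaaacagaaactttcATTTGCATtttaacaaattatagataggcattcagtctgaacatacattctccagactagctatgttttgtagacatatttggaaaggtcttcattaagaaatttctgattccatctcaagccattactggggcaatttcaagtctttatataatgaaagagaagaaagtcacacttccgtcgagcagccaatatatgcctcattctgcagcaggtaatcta
Of 238 fallen genes with a promoter window, 12 (5.04%) held the octamer on either strand, against 2.59% of 580 risen genes, 2.01% of the 10167 tested genes with a window and 2.19% of all 27305 genes with one. A match describes letters in the window and is not a measured binding site.

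Genes were ranked by the smaller of their log2 changes in the fits of 18 and 17 libraries, among those called in both without overlap. The largest rises included contractile, secreted and matrix genes. TNNT2, cardiac troponin T, had 145.1, 151.2 and 149.6 scaled TPM with sgPOU2F3, against 25.2, 7.537 and 11.48 scaled TPM with sgRosa, a log2 change of 3.41 (SE 0.27, adjusted p = 2.94e-07), and 3.86 (SE 0.16) without the skewed library. PRSS23, a secreted serine protease, had 206.6, 200.3 and 201.6 scaled TPM with sgPOU2F3, against 26.44, 17.63 and 21.71 scaled TPM with sgRosa, a log2 change of 3.17 [3.31]. IGFBP4, which binds insulin-like growth factors, had 290.8, 292.4 and 271.9 scaled TPM with sgPOU2F3, against 55.23, 21.9 and 30.25 scaled TPM with sgRosa, a log2 change of 3.06 [3.42]. None of these overlapped between the groups. CNN1 (calponin, of smooth muscle), TNC (tenascin C, a matrix protein), PHLDB2 (a scaffold of cell edges), ALPK2 (a kinase), NELL2 (a secreted EGF-domain protein) and P3H2 (a collagen hydroxylase) rose by log2 changes between 2.80 and 3.44 in 18 libraries. EDN1 and EDN2, the peptide hormones endothelin 1 and 2, rose by 2.96 [2.86] and 2.94 [3.30]. The 15 largest falls also held NMU, the peptide neuromedin U, whose log2 change of -1.98 became -1.27 without the skewed library, where it was at 2992 scaled TPM against 654 and 703.6 in the other controls. MT1A (a metallothionein), INHBE (an inhibin beta subunit), ASS1 (argininosuccinate synthase), IQCH, PSD2, FAM43B and IGSF21 made up the rest, at log2 changes from -2.33 to -1.29.

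**Figure D3:**
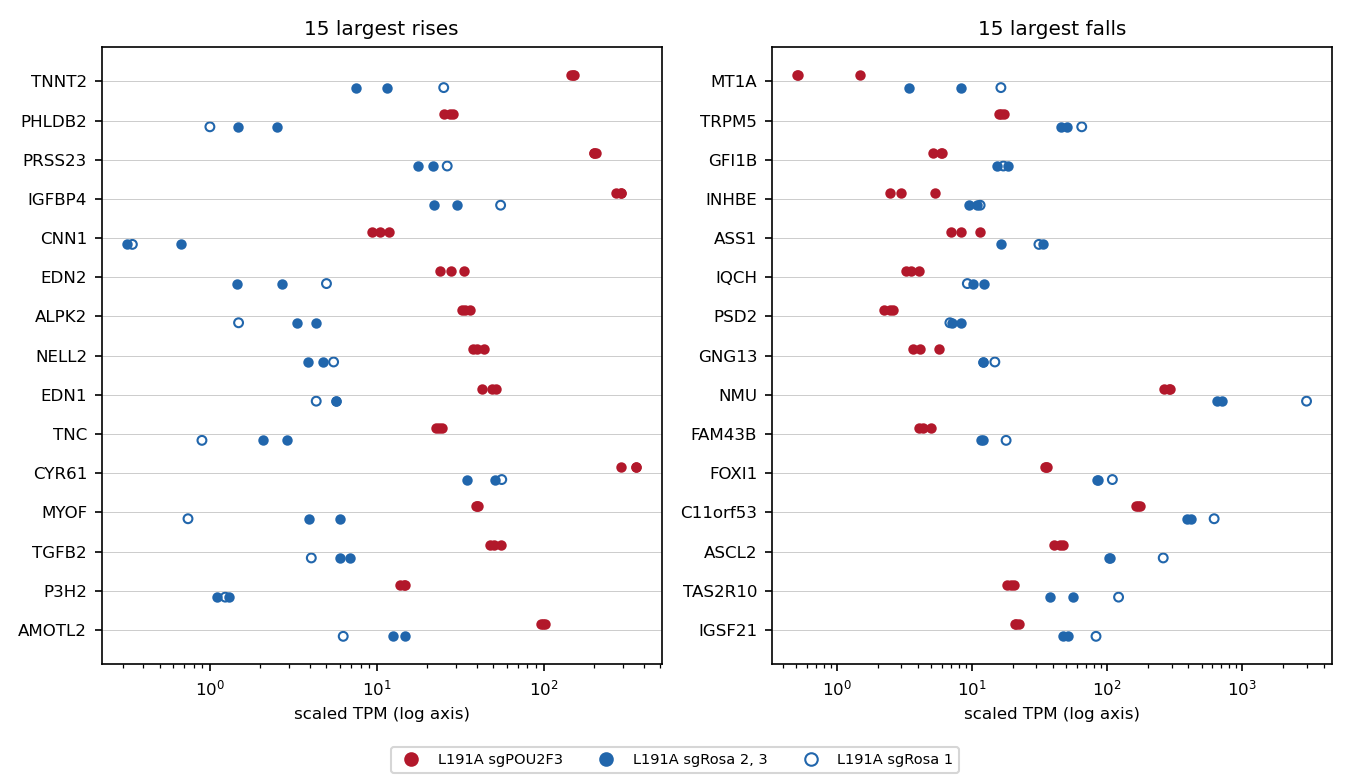
Scaled TPM (log axis) of the 15 genes with the largest rises and the 15 with the largest falls by the smaller log2 change of the 2 fits, with L191A sgPOU2F3 libraries in red above L191A sgRosa libraries in blue, and the skewed sgRosa library as an open circle. The groups do not overlap for any of the 30 genes, which the rule that chose them required.

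Targets of YAP and TAZ were the list with the most rises by count, though not by share of tested members. YAP1 and WWTR1 (TAZ) are coactivators of the TEAD factors that the Hippo kinases hold out of the nucleus. Of 26 tested targets 17 rose and 0 fell, with a median log2 change of 1.51 (1.13 without the skewed library). Summed over the 30 targets in the table, the level was 1635, 1616 and 1494 scaled TPM in L191A sgPOU2F3 libraries and 372.7, 478.4 and 544.4 scaled TPM in L191A sgRosa libraries. CYR61, a matricellular protein, had 359.0, 355.9 and 289.8 scaled TPM with sgPOU2F3, against 56.1, 34.73 and 51.26 scaled TPM with sgRosa, a log2 change of 2.82 [2.95] (SE 0.16, adjusted p = 9.49e-09). AMOTL2, an angiomotin that restrains YAP, had 98.82, 101.5 and 96.2 scaled TPM with sgPOU2F3, against 6.3, 12.43 and 14.75 scaled TPM with sgRosa, a log2 change of 3.11 [2.78]. TGFB2, a growth factor of the TGF-beta family, rose by 2.99 [2.81] and MYOF, the membrane protein myoferlin, by 3.39 on the log2 scale, the last 2.82 without the skewed library, where it read 0.7403 scaled TPM.

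The coactivators rose along with the targets. WWTR1 had 25.93, 24.22 and 21.77 scaled TPM with sgPOU2F3, against 2.841, 3.201 and 3.84 scaled TPM with sgRosa, a log2 change of 2.54 [2.48] (SE 0.12, adjusted p = 1.89e-09). YAP1 had 73.94, 73.82 and 72.56 scaled TPM with sgPOU2F3, against 9.574, 22.12 and 21.08 scaled TPM with sgRosa, a log2 change of 2.09 (1.72 without the skewed library). Neither gene overlapped between the groups. Of 26 tested Hippo pathway components 11 rose and 1, TEAD2, fell, a call lost with unscaled TPM and with quantile normalization. Lists share members, so their counts are not independent. AMOTL2 is in this list and that of YAP and TAZ targets. GFI1B is in those of tuft markers and tuft transcription factors, and FOSL1 in those of AP-1 subunits and ERK feedback. Of 12 tested AP-1 subunits, factors that often bind beside TEAD, 3 rose: FOSL1 (log2 change 2.01 [1.88]), FOSL2 (1.89 [1.49]) and JUN (1.08 [0.93]).

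Promoters with the core TEAD element are shown for TNNT2, first when rises were ranked by the smaller change of the 2 fits (chr1:201377631-201377930, minus strand), and AMOTL2 (chr3:134374398-134374697, minus strand), drawn as above. GGAATG or its reverse complement is in capitals, and lies 81 and 69 bases before the start.
TNNT2: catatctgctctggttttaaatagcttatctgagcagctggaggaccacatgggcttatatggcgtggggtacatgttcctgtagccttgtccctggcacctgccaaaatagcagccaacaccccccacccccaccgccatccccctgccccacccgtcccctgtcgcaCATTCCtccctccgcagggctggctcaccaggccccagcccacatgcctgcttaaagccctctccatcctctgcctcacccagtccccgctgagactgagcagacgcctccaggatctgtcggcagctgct
AMOTL2: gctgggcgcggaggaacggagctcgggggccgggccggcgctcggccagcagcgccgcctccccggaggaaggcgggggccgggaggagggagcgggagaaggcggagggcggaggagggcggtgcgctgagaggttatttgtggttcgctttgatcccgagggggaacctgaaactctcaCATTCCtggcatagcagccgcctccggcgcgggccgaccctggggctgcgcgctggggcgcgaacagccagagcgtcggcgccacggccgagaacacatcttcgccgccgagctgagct
GGAATG stood on either strand in 24.8% of the 580 risen genes with a window, against 16.4% of fallen genes and 14.9% of tested genes. The AP-1 element TGANTCA stood in 11.7% of risen genes, 8.82% of fallen genes and 6.75% of tested genes. Risen genes had more windows each, 1.69 on average, against 1.5 for fallen and 1.47 for tested genes, and the part of this in the shares was not tested.

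Cytoskeletal, adhesion and matrix genes rose with them. Over all tested genes 5.80% rose and 2.49% fell. Of 8 tested keratins 5 rose and 0 fell, and all 8 passed without the skewed library. KRT17, a keratin of basal and activated epithelium, had 192.2, 199.4 and 161.9 scaled TPM with sgPOU2F3, against 59.0, 23.45 and 34.89 scaled TPM with sgRosa, a log2 change of 2.30 [2.64]. The simple-epithelium pair KRT8 and KRT18 rose by 1.64 [1.86] and 1.53 [1.87] on the log2 scale and KRT80 by 2.77 [2.40]. Of 17 tested mesenchymal genes 12 rose and 1, TWIST1, fell, a call lost with unscaled TPM. Among them VIM, the intermediate filament vimentin, had 172.7, 165.1 and 163.9 scaled TPM with sgPOU2F3, against 77.7, 62.0 and 51.32 scaled TPM with sgRosa, and FN1 (fibronectin) and TAGLN (transgelin) rose by 2.37 [1.80] and 1.88 [2.53]. E-cadherin, CDH1, also rose, with 272.4, 259.8 and 214.9 scaled TPM in sgPOU2F3 libraries and 56.36, 90.55 and 96.65 scaled TPM in sgRosa libraries, a log2 change of 1.64 [1.40]. It was 1 of 4 epithelial junction genes of 25 tested that rose, with CLDN1, CLDN4 and CLDN6 (claudins of tight junctions), and 0 fell. Of 14 tested integrins 7 rose and 0 fell, ITGA3 by 2.11 [1.78] and ITGB3 by 1.85 [1.78]. Of 13 tested genes of plasminogen activation and collagenases 8 rose and 0 fell, led by PLAU (urokinase, 2.27 [2.38]), SERPINB7 (2.08 [2.03]) and MMP13 (collagenase 3, 1.90 [1.99]). LAMB3, a laminin subunit of basement membranes, rose by 2.01 [2.01], in a basal and squamous list of which 3 of 8 tested members rose, and TP63 and SOX2, its defining factors, were under 1 TPM.

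**Figure D4:**
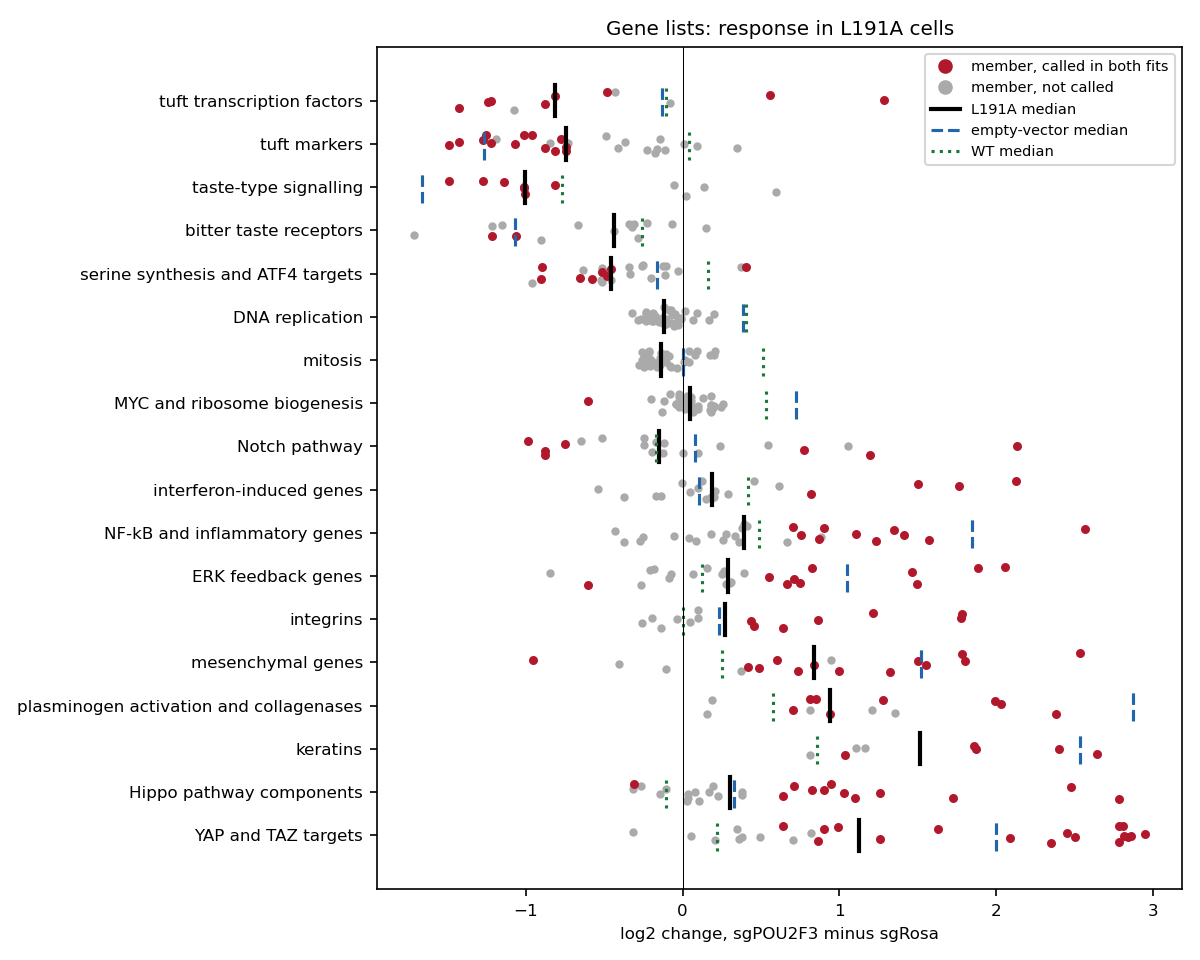
Log2 change (sgPOU2F3 minus sgRosa) in L191A cells, from the fit without the skewed sgRosa library, of each tested member of 18 gene lists, red where called in both fits. Bars give the list's median in L191A cells (black, the same fit) and in empty-vector (blue dashed) and WT (green dotted) cells from the fit of 18 libraries: tuft markers lie at -0.75 and YAP and TAZ targets at 1.13 in L191A cells.

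Inflammatory and growth factor genes rose in part. Among 27 tested inflammatory genes, mostly NF-kB targets, 10 rose and 0 fell. LIF, a cytokine of the interleukin 6 family, had 39.53, 37.57 and 37.15 scaled TPM with sgPOU2F3, against 1.996, 4.59 and 6.901 scaled TPM with sgRosa, a log2 change of 2.94 [2.57] (SE 0.24, adjusted p = 4.63e-07). ICAM1, an adhesion molecule, rose by 1.28 [1.24]. IL6 itself averaged 1.65 scaled TPM with sgPOU2F3 and 1.64 scaled TPM with sgRosa (adjusted p = 0.866). Of 20 tested interferon-induced genes 4 rose, among them IFITM1 and IFITM3, membrane proteins that restrict viral entry (log2 changes 1.78 [2.13] and 1.53 [1.77]). Of 21 tested genes of class I antigen presentation 2 rose, against 5.80% of all tested genes, and no result was drawn for that list. Of 24 tested ERK feedback genes 9 rose and 1, MYC, fell. EPHA2, an ephrin receptor, rose by 2.14 [2.06] and DUSP5, an ERK phosphatase, by 1.35 [1.49]. MYC had 172.8, 182.5 and 173.8 scaled TPM with sgPOU2F3, against 255.7, 254.5 and 282.6 scaled TPM with sgRosa, without overlap (log2 change -0.58 [-0.60]), but with unscaled TPM and with quantile normalization it was not called. Of 10 tested genes of KIT and growth factor receptors 3 rose and 0 fell, with FGFR2 at 1.44 [1.26] and ERBB2 at 1.12 [1.02], and KIT averaged 12.3 scaled TPM with sgPOU2F3 and 11.98 scaled TPM with sgRosa.

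Notch genes moved in both directions, 3 up and 4 down of 20 tested. HES1, a repressor induced by Notch, had 32.72, 34.34 and 30.3 scaled TPM with sgPOU2F3, against 16.98, 6.593 and 6.69 scaled TPM with sgRosa, a log2 change of 1.72 [2.14]. The ligand JAG1 rose by 1.45 [1.20], while the inhibitory ligand DLL3 fell by 1.31 and HEY1 by 1.30 on the log2 scale (both 0.88 without the skewed library). DLL3 and INSM1 were the 2 of 8 tested neuroendocrine genes that fell, and with unscaled TPM 1 of the 8 was called lower. Of 25 tested serine synthesis and ATF4 target genes 7 fell and 1 rose (3 lower and 0 higher with unscaled TPM, 10 and 0 with quantile normalization), with PCK2 (a mitochondrial gluconeogenic enzyme) at -1.27 [-0.90] and TRIB3 (a stress pseudokinase) at -0.81 [-0.51]. Among apoptosis regulators 3 of 23 tested rose and 2 fell, the falls not passing with unscaled TPM. BCL2, which blocks apoptosis, had 31.87, 29.25 and 32.55 scaled TPM with sgPOU2F3, against 43.56, 69.32 and 55.4 scaled TPM with sgRosa, and BIK, which promotes it, fell by 0.96 [0.80]. Over all tested genes 5.80% rose and 2.49% fell, and no result was drawn for the apoptosis list or for p53 targets. Of 25 tested p53 targets 2 rose and 1 fell, the fall not passing with unscaled TPM. The larger rise was that of PLK2, a polo-like kinase that had 211.9, 205.8 and 212.1 scaled TPM with sgPOU2F3, against 49.77, 36.12 and 44.54 scaled TPM with sgRosa, a log2 change of 2.26 [2.36].

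Growth and housekeeping lists held few or no calls. By limma 0 of 78 ribosomal protein genes, 0 of 42 DNA replication genes, 0 of 41 mitosis genes, 0 of 41 oxidative phosphorylation genes, 0 of 23 cholesterol synthesis genes and 0 of 26 housekeeping controls were called in both fits. Of 33 MYC and ribosome biogenesis genes the 1 called was MYC itself, and of 29 hypoxia and glycolysis genes ADM rose. At an unadjusted p under 0.05 in both fits the counts were 0, 3, 0, 0, 3 and 0 in that order. In the fit of 18 libraries alone, 3 cholesterol genes were called. The medians of ribosomal protein and oxidative phosphorylation genes moved with the skewed library, at -0.82 and -0.70 on the log2 scale with it and -0.17 and -0.09 without it. Summed over members, ribosomal protein, DNA replication, mitosis and oxidative phosphorylation genes were lower in every sgPOU2F3 library than in every sgRosa library. Libraries did not overlap, with sgPOU2F3 lower, for 37 of 78, 11 of 42, 15 of 41 and 13 of 41 in that order. The same held for 1933 of 12552 tested genes. The sums of the other lists of this paragraph overlapped between the groups. A p above the threshold does not show that these genes did not differ.

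The labelled cell type was checked against its markers. Defining tuft markers AVIL, TRPM5, GNG13 and RGS13 were present in both groups, RGS13 at a mean of 525 scaled TPM with sgPOU2F3 and 1076 scaled TPM with sgRosa. In bulk RNA, fewer cells of a type and less RNA per cell cannot be told apart. Among markers of other cells, CD79B and CD14 fell, of 5 lymphoid and myeloid genes tested, DCN fell and COL1A2 rose, of 6 fibroblast genes, and HOXC10 fell, of 7 markers of embryonic kidney packaging cells, a call lost with unscaled TPM. CD3E, PTPRC, PAX2, SFTPC and CDH5 averaged 0, 2.83, 0, 0 and 0.0361 scaled TPM with sgPOU2F3. These are single members, and other members of their lists were expressed. The 13 packaging-cell markers summed to 236.7 to 242.4 scaled TPM with sgPOU2F3 and 292.1 to 295.9 scaled TPM with sgRosa. Fibroblast markers summed to 83.43 to 90.34 and 82.32 to 91.52, and lymphoid and myeloid markers to 25.02 to 26.08 and 26.76 to 40.87, in that order. The part of these genes in the results was not tested.

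The response in L191A cells was then set beside that of empty-vector cells, which lack any POU2F3 cDNA and share no library with it. Calls in all 3 lines did use 1 shared estimate of the spread of each gene. In empty-vector cells 1654 genes rose (13.2%) and 1611 fell (12.8%) in both fits, 26.0% in all. Of the 728 genes that rose in L191A cells 489 also rose there, 67.2% of the L191A genes and 29.6% of the empty-vector genes. Of the 312 that fell 176 also fell there, 56.4% and 10.9%. Over the 1654 genes that rose in empty-vector cells the median log2 change was 0.20 in L191A cells and 0.78 in empty-vector cells, and over the 1611 that fell it was -0.13 and -0.71. Since these genes were picked by their empty-vector values, the smaller L191A medians are a description. The direct test of the difference of the responses called 717 genes with a more positive (5.71%) and 717 with a more negative response (5.71%) in L191A cells, 11.4% in all.

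Of 26 YAP and TAZ targets 15 had a more negative response in L191A than in empty-vector cells and 2 a more positive one. Their summed level under sgPOU2F3 was 1582 ± 76.5 scaled TPM in L191A cells and 1583 ± 93.02 scaled TPM in empty-vector cells, and under sgRosa 465 ± 86.6 and 349 ± 30.3 scaled TPM (SD, n = 3 each). For CYR61 the log2 change was 2.82 in L191A cells and 7.15 in empty-vector cells, and its mean under sgRosa was 47.4 scaled TPM in L191A cells against 2.00 scaled TPM in empty-vector cells. KRT17 had the most negative difference of the genes called, -5.04, with log2 changes of 2.30 and 7.34. Of 27 NF-kB and inflammatory genes 22 had a more negative response in L191A than in empty-vector cells, as did 10 of 13 plasminogen and collagenase genes, 13 of 24 ERK feedback genes and 14 of 33 MYC and ribosome biogenesis genes. IL6 reached 20.5 scaled TPM in empty-vector sgPOU2F3 cells, against 0.199 scaled TPM in their sgRosa cells. FOSL1, TGFBI, SERPINB7, GREM1 and PLAU had differences between -3.93 and -3.21.

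Among tuft markers 8 of 27 had a more positive response in L191A than in empty-vector cells and 1 a more negative one. Tuft markers summed to 2188 ± 39.2 scaled TPM in L191A sgPOU2F3 cells and 2558 ± 162 scaled TPM in empty-vector sgPOU2F3 cells (SD, n = 3 each). GNG13 fell by 1.36 on the log2 scale in L191A cells and by 2.22 in empty-vector cells. Of 11 tuft transcription factors 5 had a more negative response in L191A cells and 1 a more positive one. The 5 were the falling FOXI1, ASCL2, GFI1B and SPIB and the rising ETS1. Some genes opposed each other: PAX1, a paired-box factor, rose in L191A cells (1.69) and fell in empty-vector cells (-1.84), and SCIN, an actin-severing protein, rose by 0.85 in L191A cells and fell by 1.24 in empty-vector cells. FGF6, a fibroblast growth factor, had 8.054, 5.327 and 3.38 scaled TPM with sgPOU2F3, against 0.05097, 0.04892 and 0.2697 scaled TPM with sgRosa in L191A cells, and averaged 0.273 scaled TPM in empty-vector sgPOU2F3 cells, whose sgRosa libraries list it at 0.

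The L191A response was also set beside that of WT cells, which share no library with it. Because WT sgPOU2F3 replicate 1 was skewed, calls in WT cells and against them also had to hold in 16 libraries without both skewed libraries. WT cells then had 916 rises (7.30%) and 494 falls (3.94%), 11.2% of genes. Of the 728 L191A rises 155 were shared with WT cells (21.3%, and 16.9% of the WT rises), and of the 312 falls 39 (12.5%, and 7.89%). The difference of the responses was more positive in L191A cells for 690 genes (5.50%) and more negative for 682 (5.43%), 10.9% in all. Of 26 YAP and TAZ targets 11 responded more positively in L191A than in WT cells and 1, CYR61, more negatively. Of 27 tuft markers 10 responded more negatively and 1 more positively. In WT cells themselves 12 of the 26 targets were called higher and 1 lower (median log2 change 0.22 with 18 libraries). Tuft markers had 4 calls higher and 7 lower there (median 0.04). Keratins had 5 of 8 higher, plasminogen and collagenase genes 7 of 13 and inflammatory genes 8 of 27, with 0, 1 and 0 lower. Taste-type signalling had 5 of 11 lower and 0 higher, at a median of -0.77 in WT and in L191A cells with 18 libraries. With 18 libraries AVIL fell by 1.14 on the log2 scale in L191A cells and had -0.01 in WT cells. C11orf53 fell by 1.44 and had 0.11, while TRPM5 had -1.63 in L191A cells and -1.62 in WT cells. With 16 libraries C11orf53 had -1.24 in L191A cells and -0.05 in WT cells, and TRPM5 had -1.49 and -1.27. TRPM5 read 60.99 scaled TPM in the skewed WT sgPOU2F3 library, against 130.7 and 131.1 scaled TPM in the other WT sgPOU2F3 libraries. BMX fell by 0.70 in L191A cells and rose by 1.71 in WT cells, and FOXI1 fell by 1.37 and rose by 1.13. TINAGL1, MATN2, CLSTN2 and AKR1C2 had differences between 2.42 and 2.70, and TFF3, ERP27, MGP, APOBEC1 and NOS2 between -4.19 and -2.01. With 16 libraries the difference was -3.22 for TFF3 and -2.10 for MGP. TFF3, APOBEC1 and NOS2 were not called in L191A cells themselves. MGP, a matrix Gla protein, rose in all 3 lines, by 2.06 [2.76] in L191A cells, 4.25 in empty-vector cells and 5.07 in WT cells.

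**Figure D5:**
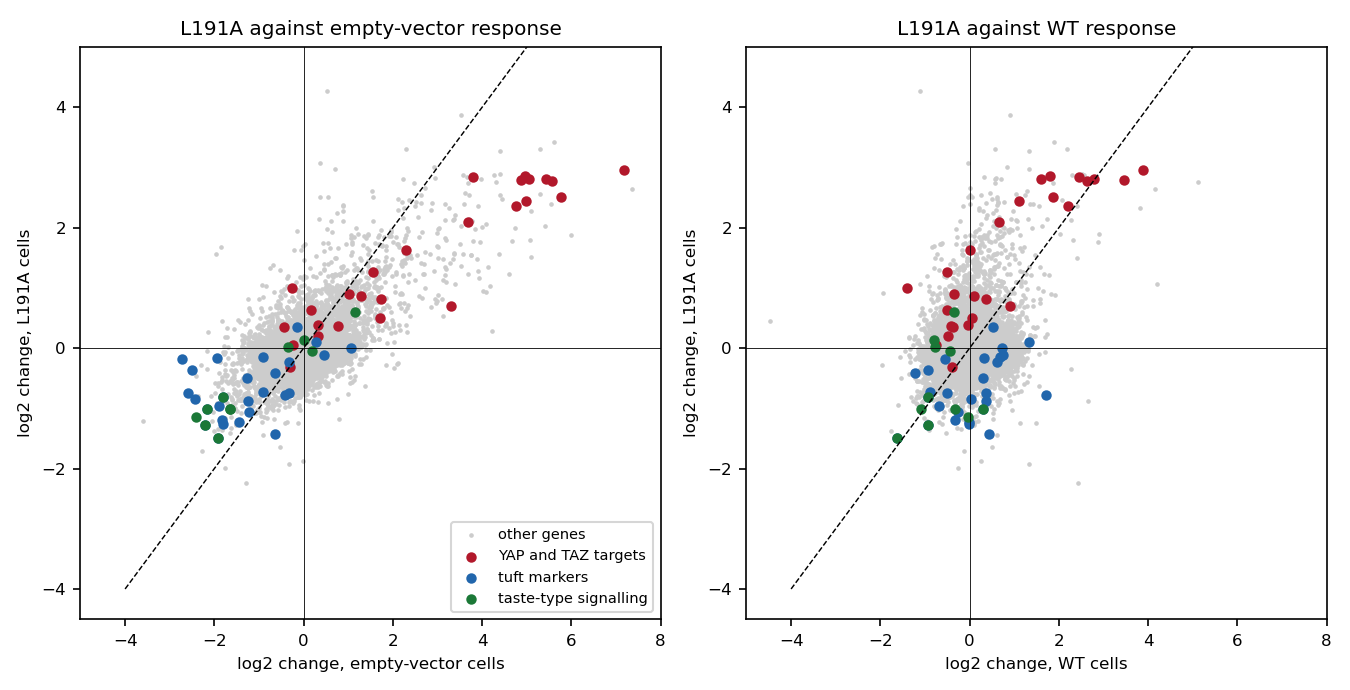
Log2 change (sgPOU2F3 minus sgRosa) in L191A cells on the y axis against that in empty-vector cells (left) and WT cells (right), 1 point a tested gene, from the fit without the skewed L191A sgRosa library, with the dashed line at equal change. Most YAP and TAZ targets lie above 0 in L191A and empty-vector cells, many of them below the line, and most tuft markers lie below 0 in both.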

How the data were processed

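The deposited table holds TPM per gene for 18 polyA RNA libraries, made by the authors with kallisto on hg38, per the submitters' processing notes. Its version, its transcript set and any use of strand were not given in the sources used here. Of 19875 entries, 134 that name no gene (27 spreadsheet dates and 107 fragments of descriptions, 1.65% to 2.44% of a library's TPM) were left out. Each library was divided by its median ratio to the geometric mean over genes. Fits used limma 3.58.1 in R 4.3.3 (limma-trend, two-sided) on log2(scaled TPM + 1), so changes of low genes are understated, with 1 coefficient for each of the 6 groups and Benjamini-Hochberg adjustment over the 12552 genes tested. The procedure was tested on simulated data. Genes were named as octamer factors and coactivators, the 15 largest rises and falls, by the smaller log2 change of the fits of 18 and 17 libraries, called in both without overlap and with a mean of at least 5 TPM in the higher group, up to 4 members a list by p, and the 8 largest differences of response each way; others were named after their values were seen. The members and gene lists were chosen with earlier results of these data known. Alternatives covered scaling, pseudocount, filter, variance model, weights, transcript length, replicate block and leaving out libraries. Coordinates come from GENCODE (GRCh38) and promoters from RefSeq.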

Additional observations from a re-analysis of the deposited data

Results flagged for a closer look

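Differences of the sgPOU2F3 response between lines were called for many of the genes named in the report or by the rule given with the methods. Each value below is the log2 response in L191A cells minus that in the other line, from the fit of 18 libraries (limma, adjusted p under 0.05 in every fit required). Groups of 3 were not searched for single outlying libraries. No cause was tested for any of these differences, and the lines differ in cDNA and in their history as separate stable lines, which cannot be told apart.

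Against empty-vector cells, the response in L191A cells was more positive for PAX1 (3.53), TAS2R60 (3.02), TP53INP1 (2.54), KLHDC7A (2.25), NELL2 (2.19), PRR15L (2.17), FGF6 (2.15), SCIN (2.09), BIK (1.39), RGS21 (1.34), CDH1 (1.17) and GNAT3 (0.90). The same direction was called for BCL2 (0.87), GNG13 (0.86) and COLCA2 (0.81). Of the 8 largest, most started lower in L191A than in empty-vector cells. Mean scaled TPM under sgRosa was 2.60 and 21.7 for TAS2R60, 4.12 and 23.5 for KLHDC7A, and 3.1 and 14.3 for TP53INP1. For PRR15L it was 4.85 and 14.5, for PAX1 2.19 and 8.70, and for SCIN 1.60 and 9.51. NELL2 (4.71 and 2.50) and FGF6 (0.123 and 0) did not start lower. Under sgPOU2F3, TAS2R60 averaged 1.07 and 0.903 and KLHDC7A 3.30 and 3.36.

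Against empty-vector cells, the response in L191A cells was more negative for KRT17 (-5.04), CYR61 (-4.34), IL6 (-4.10), FOSL1 (-3.93), TGFBI (-3.69), SERPINB7 (-3.25), PLAU (-3.23), GREM1 (-3.21), CLDN6 (-3.11), MMP13 (-2.78), FN1 (-2.67) and IGFBP4 (-2.53). The same direction was called for ETS1 (-2.51), ITGA3 (-2.51), IFITM3 (-2.42), AMOTL2 (-2.41), TGFB2 (-2.37), VIM (-2.34), ICAM1 (-2.34), MT1A (-2.32), LIF (-2.31), PRSS23 (-2.12), CLDN1 (-2.12) and LAMB3 (-1.97). It was also called for HES1 (-1.95), EDN1 (-1.94), EPHA2 (-1.92), PLK2 (-1.65), DUSP5 (-1.63), MYOF (-1.60), IFITM1 (-1.50), FOSL2 (-1.44), YAP1 (-1.39), CD14 (-1.30), ASCL2 (-1.29) and FOXI1 (-1.25). Further such genes were TRIB3 (-1.04), ALPK2 (-1.02), JUN (-0.96), PHLDB2 (-0.92), GFI1B (-0.77) and MYC (-0.60).

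Against WT cells, the response in L191A cells was more positive for TNC (2.80), CLSTN2 (2.70), TINAGL1 (2.62), MATN2 (2.55), PAX1 (2.52), TNNT2 (2.51), FGF6 (2.45), AKR1C2 (2.42), EDN2 (2.38), P3H2 (2.23), CNN1 (2.20) and PHLDB2 (2.14). The same direction was called for CDH1 (1.97), WWTR1 (1.95), LIF (1.92), FOSL2 (1.91), EPHA2 (1.87), MYOF (1.83), ETS1 (1.81), FGFR2 (1.79), ITGB3 (1.73), CLDN1 (1.72) and ITGA3 (1.68). It was also called for TAGLN (1.63), NELL2 (1.55), KRT80 (1.44), YAP1 (1.41), JAG1 (1.37), LAMB3 (1.28), ERBB2 (1.24), EDN1 (1.20), IGFBP4 (1.17), AMOT (1.01), PRSS23 (0.99) and ICAM1 (0.97). Further such genes were JUN (0.91) and DUSP5 (0.88).

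Against WT cells, the response in L191A cells was more negative for TFF3 (-4.19), ERP27 (-3.21), MGP (-3.01), APOBEC1 (-2.92), MT1A (-2.57), FOXI1 (-2.49), BMX (-2.40), NMU (-2.08), NOS2 (-2.01), TAS2R10 (-1.86), GFI1B (-1.86) and CD79B (-1.65). The same direction was called for PCK2 (-1.60), C11orf53 (-1.55), MYB (-1.50), HEY1 (-1.40), CD14 (-1.36), IFITM3 (-1.33), BIK (-1.24), DLL3 (-1.23), INHBE (-1.20), TAS2R7 (-1.15), AVIL (-1.13) and PTGS1 (-1.12). It was also called for CYR61 (-1.06), RGS21 (-1.04), HEPACAM2 (-1.03), TRIB3 (-0.97), HOXC10 (-0.86), IQCH (-0.79), HPGD (-0.76), MYC (-0.74) and PLCG2 (-0.64).

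Turned back from log2 to folds, several of these differences changed by over 1.5-fold in a fit that left out skewed libraries. The values below are on the log2 scale. Against empty-vector cells and without L191A sgRosa replicate 1, the difference was -2.24 for MYOF, 2.38 for TAS2R60 and -3.27 for FN1. Against WT cells it was, without L191A sgRosa replicate 1 and then with 16 libraries, -3.54 and -3.22 for TFF3, -2.36 and -2.10 for MGP, -1.37 and -1.11 for NMU, and -2.13 and -1.98 for MT1A. In the same order it was -1.41 and -1.20 for TAS2R10, -0.97 and -0.81 for HEY1, -0.94 and -0.76 for CD14, 1.21 and 1.19 for MYOF, 1.04 and 0.81 for YAP1, 1.51 and 1.26 for FOSL2, and 2.29 and 2.18 for TAGLN.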

How the results depend on the processing

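In the fit of 18 libraries 848 genes were called higher and 440 lower in L191A cells, 1464 differed in response from empty-vector cells and 1755 from WT cells. Calls higher numbered 545 with a mean of at least 5 TPM, 1476 with array weights, 289 with only the 6 L191A libraries and 1419 with the 5 that leave out the skewed one. Calls lower numbered 844 with 16 libraries, 76 with unscaled TPM, 695 with quantile normalization, 1243 with array weights, 40 with 6 libraries, 1036 with 5, and 203 to 1133 with 1 library left out in turn. Differences from empty-vector cells numbered 2264 without L191A sgRosa replicate 1, 3681 with 16 libraries, 689 unscaled, 4948 with array weights and 684 to 3265 with 1 library left out. Differences from WT cells numbered 2675 with quantile normalization, 4893 with array weights and 550 to 4819 with 1 library left out. Deviations of same-numbered L191A libraries from their group means had r of -0.0153, -0.0714 and 0.00389. The sgRosa mean holds the skewed library, which shifts all sgRosa deviations, so this check cannot decide on pairing. Numbers were not taken as pairs. With a replicate block 836 genes were called higher, 425 lower and 2736 differed from WT cells, against 848, 440 and 1755 without it. The cause of these shifts was not tested, beyond the fewer genes or libraries that a setting has.

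The POU2F3 change in L191A cells turned to 0.3696 with unscaled TPM and 0.2719 with quantile normalization, and ran from -0.5648 to 0.2187 with 1 library left out. It passed as a fall in 3 settings: -0.5663 with 16 libraries (limma, adjusted p = 0.00897), -0.6031 with array weights (adjusted p = 0.00123) and -0.5575 with only the 5 L191A libraries that leave out the skewed one (adjusted p = 0.00586). That of COLCA2 turned to -0.05164 with quantile normalization and -0.005855 with array weights, and ran from -0.07308 to 0.1926 with 1 left out. Of 2051 values of named genes and differences under the other settings 1958 kept direction and side of the threshold, and of 2574 with 1 library left out 2523 did. Losses were most frequent with only the 6 L191A libraries, where 41 of 111 no longer passed, and with unscaled TPM, where 25 of 143 did not. The counts of called list members moved by over 1.5 times in 227 of 1140 combinations of list count and other setting, and in 142 of 1368 with 1 library left out. Depth is unknown, so no floor or counting interval could be given.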
